A study of Mus musculus with 12 samples.

Results

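The regions described here were open in all 4 peak lists of upper-layer projection neurons taken after birth and in none of the 8 lists taken before birth. Open chromatin had been assayed with ATAC-seq, where the enzyme Tn5 cuts and tags DNA that is not packed away, and each sample was deposited as 1 list of peaks. Peaks of all 12 lists that overlapped or touched were merged into 498516 regions, and a list was counted as open at a region if its peaks reached any base there. By this rule 2737 regions were open in every postnatal sample only, which is 0.549% of all regions. They covered 2088636 bp in all. The choice of these regions used the open or closed state in every list, so that contrast is described below and not tested.

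All samples were GFP-positive cells sorted from the neocortex of CD1 mice. The postnatal groups were upper-layer neurons at postnatal day 1 (P1, replicates 1 and 3) and at postnatal day 5 (P5, replicates 1 and 2). The prenatal groups, each with replicates 1 and 2, were deep-layer neurons at embryonic day 13.5 (E13.5), E16.5 or E18.5 and upper-layer neurons at E17.5. Upper-layer cells were marked at E15.5 by electroporation in utero of a plasmid that carries GFP under a Cdk5r promoter, so they are a cohort labelled on 1 day, while deep-layer cells carried the Golli-GFP transgene. Each replicate pooled more than 1 animal. Whether replicates differ in litter is not in the labels, and the p-values below reflect only how far these lists vary, possibly for technical reasons. No deep-layer sample was taken after birth, so whether deep-layer neurons open these regions at P1 or P5 cannot be told from this design. In sorted cells, signal from fewer open cells and weaker signal per cell cannot be told apart. The sorted cell type was not checked against marker genes, because no gene annotation of the build of the lists (mm9) was used here. Positions are on mm9, counted from 1.

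Upper-layer neurons are the late-born excitatory neurons of the cortex, most of which send axons to other cortical areas, many through the corpus callosum. In the first days after birth they finish their migration, extend axons and dendrites and begin to form synapses. Accessible regions of chromatin include gene promoters and distal enhancers, and many distal regions open or close as a neuron matures. Peak lists record only where signal passed a caller's threshold, so a region closed in a list can still hold signal below it.

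The lists held 96452 to 164508 peaks, and the 4 postnatal lists 107282 to 131337. The lists give no read totals, so whether these numbers follow sequencing depth cannot be told. Peaks were narrower in every postnatal list than in any prenatal one, with medians of 302 to 326 bp against 390 to 489 bp. What this difference between the lists does to the set was not tested. Deep-layer E18.5 replicate 1 was the shortest of all lists by number of peaks (96452 peaks). It stood apart from the other 7 prenatal lists in several measures below, and values without it are given beside the results it moved. Both upper-layer E17.5 lists carry the same library name in their peak names and were kept as the 2 replicates that the labels give. The P1 list labelled replicate 3 carries the number 2 in its peak names, and the label's number is used here. Between 2.26% and 2.73% of the peaks of each postnatal list lay in the postnatal-only regions. The counts were 3016 and 2974 peaks at P1 (replicates 1 and 3) and 2962 and 2932 peaks at P5 (replicates 1 and 2), so each list had little more than 1 peak per region.

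The postnatal-only combination was one of the most frequent ways to be open in exactly 4 lists. Of the 26473 regions open in exactly 4 lists, 10.3% had it, and it ranked 2 among the 450 combinations of lists that occurred. The most frequent combination was both deep-layer E13.5 lists with both upper-layer E17.5 lists, at 6228 regions. Another combination followed closely behind the postnatal one, at 2722 regions, and the next combination had 779. The postnatal-only regions also made up 10.3% of the 26669 regions open in all 4 postnatal lists, of which 17048 were open in all 12 lists.

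On the prenatal side, regions that missed the rule by 1 list did so mostly through the same list. In another 1869 regions all 4 postnatal lists and exactly 1 prenatal list were open, and the prenatal one was deep-layer E18.5 replicate 1 in 1490 of them (79.7%). Each of the other 7 prenatal lists accounted for 19 to 95 regions, and deep-layer E18.5 replicate 2 for only 38. The share of deep-layer E18.5 replicate 1 among regions with 1 open prenatal list moved with the number of open postnatal lists. It was 6.29% where no postnatal list was open, 18.9% with 1, 34.7% with 2, 51.4% with 3 and 79.7% with 4. Replicate 2 of the same stage went the other way, from 10.9% with no open postnatal list to 2.03% with 4. Without deep-layer E18.5 replicate 1 the number of postnatal-only regions was 4228, while leaving out any other single prenatal list gave 2757 to 2832.

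**Figure D1:**
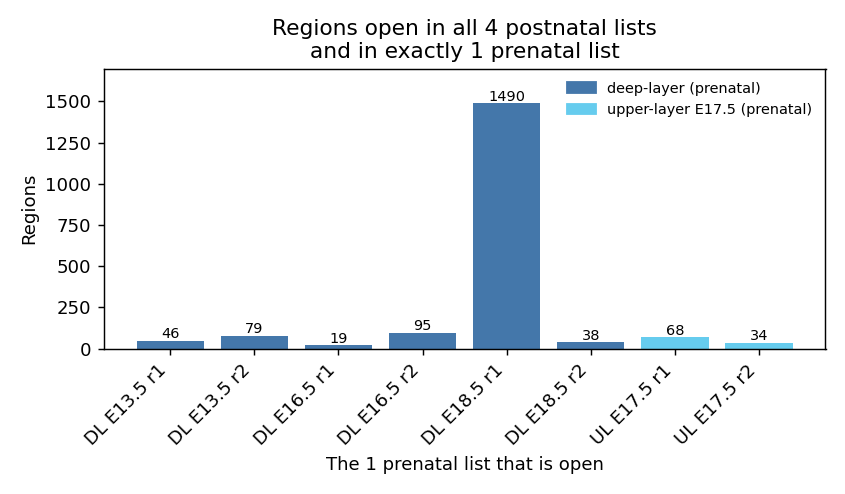
Number of regions (vertical axis) open in all 4 postnatal lists and in exactly 1 of the 8 prenatal lists, by that prenatal list (horizontal axis; DL deep-layer, UL upper-layer, r replicate). The bar of deep-layer E18.5 replicate 1 reaches 1490 regions, and the other 7 bars lie between 19 and 95.

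On the postnatal side, 7537 regions were open in 3 of the 4 lists and in no prenatal list. The missing list was P1 replicate 1 in 1236, P1 replicate 3 in 1774, P5 replicate 1 in 1927 and P5 replicate 2 in 2600. The order did not follow list length: P5 replicate 2 was the shortest postnatal list (107282 peaks), but P5 replicate 1 was the longest (131337). The missing list had a peak within 1 kb in at most 25.1% of the regions it missed. The number of regions open in every postnatal list thus depends on asking all 4: it was 3934 and 4491 without P1 replicate 1 or 3, and 4631 and 5322 without P5 replicate 1 or 2.

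The postnatal-only regions were longer than the typical merged region and shorter than regions open in more lists. Their median length was 696 bp (quartiles 522 and 926 bp, range 255 to 2772 bp), against 356 bp for all regions (quartiles 248 and 591 bp), 622 bp for the 23736 other regions open in exactly 4 lists, 952 bp for the 8936 regions open in all 8 prenatal lists and no postnatal one (called prenatal-only below) and 1400 bp for regions open in all 12. Every list held exactly 1 peak in 2135 of the 2737 regions (78.0%). In 2239 regions (81.8%) a stretch was covered in all 4 lists at once, with a median of 190 bp over all postnatal-only regions. The other 498 were chains, in which peaks of the 4 lists joined without a base common to all. The centres of the widest peaks of the 4 lists lay within 200 bp of each other in 48.4% of the regions, with a median spread of 210 bp, so the peaks of the 4 lists often overlapped without sharing a centre.

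The list medians of peak width per region lay close together. The median was 424 bp in P1 replicate 1, 383 bp in P1 replicate 3, 409 bp in P5 replicate 1 and 361 bp in P5 replicate 2. These were above the median widths of all peaks in the same lists (303, 302, 316 and 326 bp), which is an unlike measure. The width per region sums a list's peaks there, and whole lists also hold peaks that other lists lack. They were below the medians in regions open in all 12 lists, which were 752, 805, 741 and 910 bp. The order of the lists differed between the sets: P5 replicate 2 had the narrowest peaks of the 4 in postnatal-only regions and the widest in regions open throughout. Which regions were wide was only partly shared between lists, with Spearman's rho over the 2737 regions of 0.404 between the P1 replicates, 0.308 between the P5 replicates and 0.289 to 0.384 between a P1 and a P5 list. Over regions open in all 12 lists rho was 0.723 to 0.782, and these coefficients are descriptions across regions, which are not independent. Within single regions the lists differed more: the most covered list had at least 2 times the width of the least covered in 1329 regions (48.6%). Near the limit of detection, 277 regions had a list whose peaks there summed to just 200 bp, the smallest width in any list, and only 241 (8.81%) had more than 500 bp in every list.

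**Figure D2:**
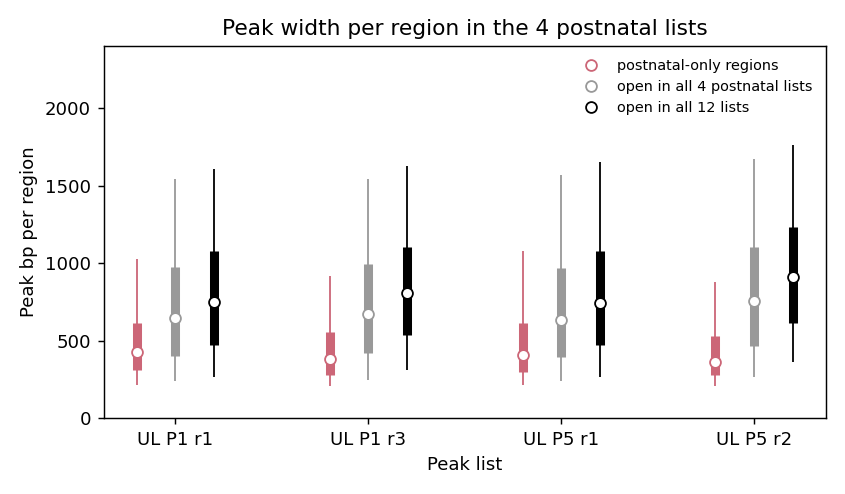
Summed peak width per region in bp (vertical axis) in each postnatal list (horizontal axis; UL upper-layer, r replicate), for postnatal-only regions, all regions open in the 4 postnatal lists and regions open in all 12. Circles are medians, thick bars quartiles and thin lines the 5th to 95th percentiles. Medians of the postnatal-only regions lie between 361 and 424 bp, below both other sets in every list.

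The 10 widest postnatal-only regions, by the median width over the 4 lists, lay on chromosomes 1, 3, 4, 6, 10, 12, 13, 17 and 19. The widest was on chromosome 6 from 144615855 to 144618626, with 1889 and 1387 bp of peaks at P1 and 2590 and 1511 bp at P5. Next came a region on chromosome 3 from 146139759 to 146141509, with 1690 and 1639 bp at P1 and 1699 and 1737 bp at P5. It was the most even of the 10: 1605 of its 1751 bp were covered in all 4 lists, the longest such stretch in any postnatal-only region, and no prenatal list had a peak in it or within 1 kb. On chromosome 19 from 17119185 to 17121352 the widths were 1741 and 1543 bp at P1 and 2151 and 1608 bp at P5. That region was the exception among the 10 in its surroundings, since 4 prenatal lists had a peak within 1 kb of it and no prenatal list came that close to the other 9. A pair lay near each other on chromosome 4, from 41903099 to 41904927 and from 42417213 to 42419017, with median widths of 1647 and 1508.5 bp. The second of them lies in a 1 Mb window with 22 postnatal-only regions, described below.

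Of the other 5 regions, 1 was wide in every list and 4 rested unevenly on the lists. On chromosome 13 from 113220840 to 113222482 all lists were wide, with 1517 and 1118 bp at P1 and 1488 and 1474 bp at P5. On chromosome 1 from 192604210 to 192605933 P1 replicate 3 had 472 bp and the other lists 1410 to 1684 bp. On chromosome 12 from 8614180 to 8616259 P1 replicate 1 had 639 bp and the other lists 1452 to 2080 bp. In both of these regions 1 P1 list was the narrow one, and the other P1 list lay close to or within the range of P5. On chromosome 17 from 84860678 to 84863293 P5 replicate 2 had 396 bp against 2602 bp in P5 replicate 1. On chromosome 10 from 75773038 to 75775440 it had 216 bp against 2127 bp, and no base was covered in all 4 lists. Here the P5 replicates lay further apart than the stages did.

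P1 and P5 were compared within the postnatal-only regions, since the rule asked for openness at both stages and did not use the difference between them. The median width averaged 403.5 ± 29.0 bp at P1 and 385 ± 33.9 bp at P5 (SD over list medians, n = 2 each). The difference of -18.5 bp was smaller than the spread between replicates (p = 0.667, exact permutation test over the 6 assignments of the stage label, two-sided), and 2 lists against 2 cannot give a p below 0.333. It was -22.5 bp without deep-layer E18.5 replicate 1, and turned to 11.5 bp without P1 replicate 1 and to 14.5 bp without P5 replicate 2. In the same lists, regions open in all 12 had 778.5 ± 37.5 bp at P1 and 825.5 ± 120 bp at P5 (SD, n = 2 each).

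Single regions were counted as wider at P5 when both P5 lists exceeded both P1 lists, and as narrower in the opposite case. With interchangeable lists and no ties, 1 of the 6 assignments of the stage labels would give each call. The counts below are therefore not counts of regions that changed with stage. Among all 26669 regions open in the 4 postnatal lists 21.1% were wider and 12.6% narrower at P5. Among the postnatal-only regions 388 (14.2%) were wider and 531 (19.4%) narrower. Of the regions called in either direction, 42.2% of the postnatal-only ones and 62.5% of all were wider at P5. Widths were then centred, on the log2 scale, on each list's median over the 26669 regions. With this these shares were 31.3% and 46.5%. There were 277 wider and 607 narrower postnatal-only regions (10.1% and 22.2%), beside backgrounds of 15.8% and 18.2%. The balance among all regions therefore turned with the centring, while among postnatal-only regions narrower calls outnumbered wider ones on both scales. The medians used for centring were 649 and 672 bp at P1 and 631 and 758 bp at P5, so centring lowered P5 replicate 2 most. The centred counts are therefore no separate support for the direction. Without deep-layer E18.5 replicate 1 there were 556 wider and 870 narrower regions. The order turned without P1 replicate 1 (1363 wider and 1179 narrower) and without P5 replicate 2 (2011 wider and 1692 narrower), where 1 list stood for a stage. Whether the 2 sets differ was not tested, because regions of the same lists are not replicates.

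The largest increase from P1 to P5 was on chromosome 2 from 26746845 to 26748481, where widths were 245 and 265 bp at P1 and 1202 and 1112 bp at P5, a difference of 2.18 on the log2 scale. On chromosome 5 from 143205148 to 143206107 they were 218 and 220 bp at P1 and 835 and 723 bp at P5. In both regions the P1 peaks were little wider than the narrowest a list can hold. On chromosome 17 from 87411773 to 87413646 widths were 662 and 423 bp at P1 and 1835 and 1815 bp at P5, and all 8 prenatal lists had a peak within 1 kb of this region. Regions on chromosome 19 from 10582762 to 10583743 and on chromosome X from 35094232 to 35096310 completed the 5 largest increases, with log2 differences of 1.64 and 1.58.

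Among the decreases, widths on chromosome 16 from 69209018 to 69210015 were 981 and 872 bp at P1 and 241 and 207 bp at P5, a difference of -2.05 on the log2 scale. On chromosome X from 121455917 to 121456908 they were 977 and 982 bp at P1 and 358 and 200 bp at P5. Both regions were thus at or near the smallest width in 1 P5 list, just inside the rule. The others of the 5 lay on chromosome 7 from 66138183 to 66139350, on chromosome 5 from 3012394 to 3013437 and on chromosome 8 from 82711993 to 82713408, with log2 differences of -1.84, -1.77 and -1.72. The last of these, like the chromosome 17 region above, had a peak of every prenatal list within 1 kb. These 10 regions were picked for their difference between the stages, so their values are a description.

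Postnatal-only regions were unevenly spread over the chromosomes. Chromosome 14 held 254 of them (9.28%, 95% Wilson interval 8.25% to 10.4%), against 5.20% of all regions and 5.15% of those open before birth only, in all 8 lists. Chromosome X held 154 (5.63%, interval 4.82% to 6.55%), against 2.72% of all regions and 4.54% of the prenatal-only ones. Chromosome 4 (223 regions, 8.15% against 6.44% of all) and chromosome 7 (175 regions, 6.39% against 5.13%) were also above their share of all regions. Prenatal-only regions had 5.41% and 2.86% on these chromosomes. Regions open in all 12 lists had 6.21% and 6.76%, so on chromosome 7 their share was the higher. By the ratio of the postnatal-only share to the share of all regions, chromosomes 16, 19 and 10 were furthest below. They held 2.27%, 1.46% and 3.73% of the postnatal-only regions, against 3.72%, 2.38% and 5.59% of all. In percentage points chromosome 2 was furthest below, with 5.12% against 7.28%. The intervals cover counting error alone, and neighbouring regions are not independent.

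**Figure D3:**
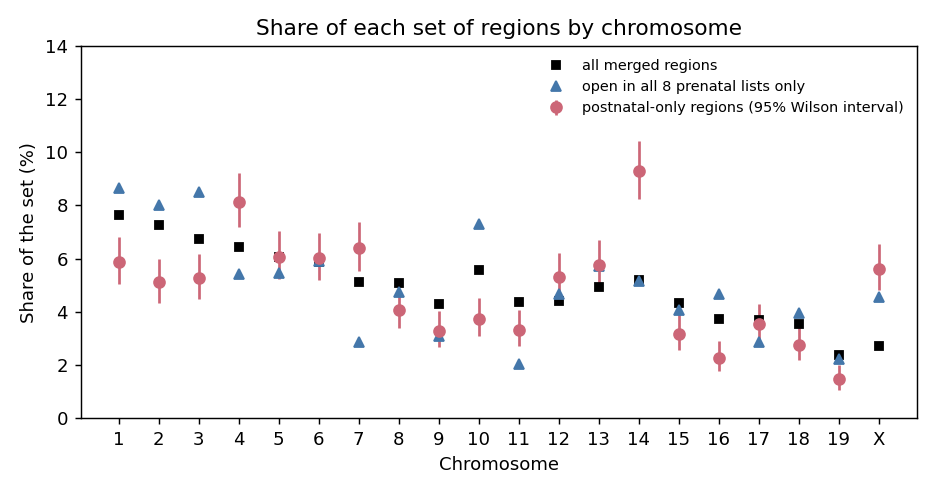
Share of each set of regions in percent (vertical axis) on chromosomes 1 to 19 and X (horizontal axis). Circles with 95% Wilson intervals are postnatal-only regions, squares all merged regions and triangles regions open in all 8 prenatal lists only. Chromosome 14 (9.28%) and chromosome X (5.63%) lie above the share of all regions (5.20% and 2.72%).

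Contigs named random, which hold sequence that the assembly could not place or order, carried 96 postnatal-only regions (3.51%, 95% Wilson interval 2.88% to 4.26%). They carried 0.383% of the other regions open in exactly 4 lists, 0.475% of those open in all 12 and only 6 of the 8936 prenatal-only ones. Most of the 96 were on the Un_random (35), Y_random (34), 1_random (15) and 8_random (10) contigs. The lists as a whole showed the same order. Random contigs took 1.38% and 1.70% of the peaks at P1 and 0.736% and 0.864% at P5, 0.654% in deep-layer E18.5 replicate 1, and 0.185% to 0.326% in the other 7 prenatal lists. On chromosome Y and its random contig there were 677 and 1172 peaks at P1, 150 and 109 at P5 and 10 to 46 in each prenatal list. Most of these lay on the Y_random contig, with 658 and 1154 peaks at P1 and 147 and 96 at P5. The placed chromosome Y had 19 and 18 peaks at P1, 3 and 13 at P5 and 5 to 8 in each prenatal list. The excess of P1 over P5 thus came mostly from 1 unplaced contig, whose peaks are part of the random-contig shares above. The sex of the pooled animals is not in the labels. The part that these contigs and deep-layer E18.5 replicate 1 play in the set was not tested. Without that list 4.40% of the postnatal-only regions lay on random contigs. On chromosomes 1 to 19 and X alone the set had 2640 regions.

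Over much of the genome postnatal-only regions stood alone, but a large minority was packed into few places. Of 2653 windows of 1 Mb that held any region, 1327 held a postnatal-only one, 786 of them just 1. At the other end, 71 windows (2.68% of all) held 5 or more and together 805 postnatal-only regions (29.4%), beside 3.56% of all regions, 3.18% of the regions open in all 12 lists and 1.09% of the prenatal-only ones. The median gap between neighbours was 379738 bp, yet 524 (19.1%) had another within 10 kb. Chromosomes 9, 15, 16 and 19 had no window of 5 or more.

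The longest run of such windows was on chromosome 14 from 3000001 to 9000000, with 89 postnatal-only regions in 6 adjacent windows. A second run on the same chromosome, from 42000001 to 45000000, held 72. Runs on chromosome 12 from 18000001 to 23000000 and on chromosome 13 from 65000001 to 67000000 held 66 and 43. On chromosome X a run from 30000001 to 33000000 held 30, and on chromosome 4 runs from 40000001 to 43000000, from 145000001 to 147000000 and from 60000001 to 62000000 held 36, 31 and 30.

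The 4 densest windows held 32, 28, 27 and 23 postnatal-only regions. In the first, on chromosome 14 from 4000001 to 5000000, the postnatal lists had 163 to 258 peaks of any kind, deep-layer E18.5 replicate 1 had 57 and the other 7 prenatal lists 11 to 54. In the second, on chromosome 14 from 43000001 to 44000000, they had 172 to 221, 89 and 2 to 24 peaks in the same order. In the third, on the Y_random contig from 17000001 to 18000000, the P1 lists had 207 and 262 peaks, the P5 lists 84 and 53, the upper-layer E17.5 lists 6 and 20 and all deep-layer lists 0. The fourth, on chromosome 14 from 42000001 to 43000000, had 138 to 182 peaks in the postnatal lists, 72 in deep-layer E18.5 replicate 1 and 3 to 16 in the other prenatal lists. Another 3 windows followed with 22 each, on chromosome 4 from 42000001 to 43000000 and on chromosome 13 from 66000001 to 67000000 and from 68000001 to 69000000. On chromosome 13 from 66000001 to 67000000 deep-layer E18.5 replicate 1, with 130 peaks, reached the range of the postnatal lists (125 to 278), while the other 7 prenatal lists had 0 to 12.

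Peaks of every kind were thus more frequent after birth in these windows, not only those that met the rule. Leaving out the peaks in postnatal-only regions, the 71 windows took 6.39% and 6.20% of the remaining peaks at P1, 5.73% and 5.95% at P5, 4.25% in deep-layer E18.5 replicate 1 and 1.57% to 2.17% in the other 7 prenatal lists. Peaks in postnatal-only regions included, every postnatal list had more peaks than each of these 7 lists in 58 of the 71 windows (81.7%). The same held in 15.4% of all windows. The rule adds such peaks to postnatal lists only, so it partly sets this count. Deep-layer E18.5 replicate 1 exceeded all 7 in 36 of the 71 windows (50.7%), against 3.77% of all windows, although it was the shortest list. Because the windows were chosen by their postnatal-only regions, these shares describe the windows and are not tested. The part of deep-layer E18.5 replicate 1, or of whatever it shares with the postnatal lists, was not tested. Without that list 39.7% of the postnatal-only regions lay in windows of 5 or more, and 8.02% lay on chromosome X.

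**Figure D4:**
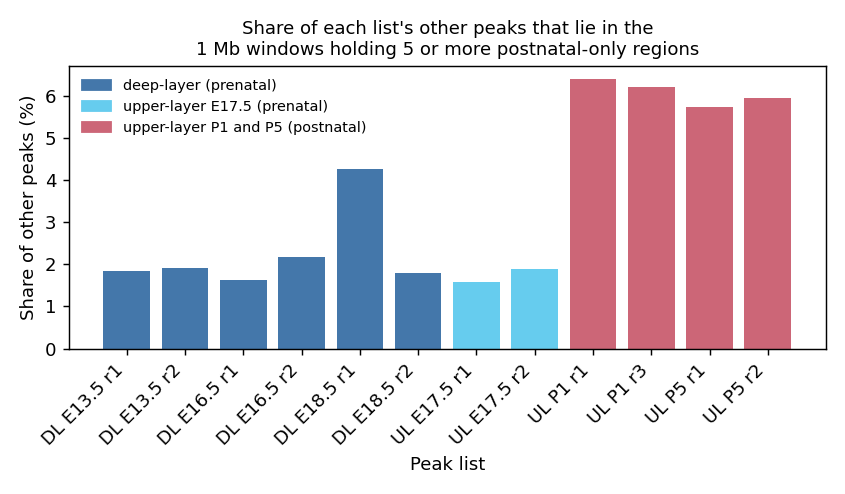
Percent of each list's peaks outside postnatal-only regions (vertical axis) that lie in the 71 windows of 1 Mb with 5 or more postnatal-only regions, by list (horizontal axis; DL deep-layer, UL upper-layer, r replicate). The 4 postnatal lists lie between 5.73% and 6.39%, deep-layer E18.5 replicate 1 at 4.25% and the other 7 prenatal lists between 1.57% and 2.17%.

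Outside these windows lay 1932 postnatal-only regions. The windows were chosen for holding many postnatal-only regions, so leaving them out makes the spread more even by construction. Chromosome 14 held 3.57% of the 1932, against 4.63% of all regions outside the windows. Of its 254 postnatal-only regions, 185 lay within the windows. Chromosome X held 4.30% against 2.50% and remained above its share of all regions. Over the whole genome, it held 4.54% of the prenatal-only regions and 2.58% of those open in all 12 lists. Chromosomes 5 and 7 held 8.07% and 6.78% against 6.22% and 5.06%, and random contigs 0.880%. The scattered regions were longer than those in the windows, with medians of 725.5 and 640 bp. Their peak widths were close to each other in all lists: 429 and 377 bp at P1 and 408 and 367 bp at P5 for the scattered regions, and 415 and 399 bp at P1 and 409 and 351 bp at P5 within the windows. Among regions with 1 open prenatal list beside the 4 postnatal ones, that list was deep-layer E18.5 replicate 1 in 82.2% of 624 regions inside the windows and in 78.5% of 1245 outside. Deep-layer E18.5 replicate 1 was thus the usual exception both inside and outside the crowded windows.

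Peaks beside the postnatal-only regions were examined next, since the rule used only peaks inside a region. Of the 2737 regions, 2055 (75.1%) had no prenatal peak within 1 kb of either edge. All 8 prenatal lists had one in 87 regions (3.18%), which therefore sit beside chromatin already open before birth. Neither share was computed for other sets of regions, so whether they are unusual cannot be told. Deep-layer E18.5 replicate 1 had a peak within 1 kb of 381 postnatal-only regions (13.9%), above its share of 8.64% over all other regions closed in it. Each of the other 7 prenatal lists was below its own share, with 6.94% to 10.3% beside postnatal-only regions and 8.38% or more beside the others. The others need only be closed in the list at hand and can be open in other prenatal lists. By the rule, postnatal-only regions are closed in all 8, so the comparison is not free of the rule. Within the 71 windows deep-layer E18.5 replicate 1 had a neighbouring peak at 20.9% of the postnatal-only regions and the other 7 lists at 5.34% to 8.57%, and outside them the values were 11.0% and 6.78% to 11.0%. Postnatal lists had a further peak within 1 kb of 27.1% to 32.4% of the postnatal-only regions. For other regions closed in these lists it was 9.94% to 12.2%. The 2 sets are unlike, since postnatal-only regions were open in these lists, and other open regions were not compared. The share for postnatal-only regions was 43.1% to 51.2% inside the 71 windows and 20.1% to 24.5% outside them.

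Between deep-layer E13.5 and E18.5 the share of postnatal-only regions with a neighbouring peak went from 8.86% ± 1.63 to 11.3% ± 3.75 (SD, n = 2 each). The difference of 2.41 percentage points did not exceed the variation among lists (p = 0.444 by exact permutation over 90 assignments of stage labels, two-sided, smallest possible p 0.0222). It rested on the first E18.5 replicate: the shares were 13.9% in replicate 1 and 8.62% in replicate 2, beside 7.71% and 10.0% at E13.5, and without E18.5 replicate 1 the difference was -0.367. For all other regions closed in a list the share was 12.4% ± 1.73 at E13.5 and 9.95% ± 1.86 at E18.5 (SD, n = 2 each), where the E18.5 lists were shorter.

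**Figure D5:**
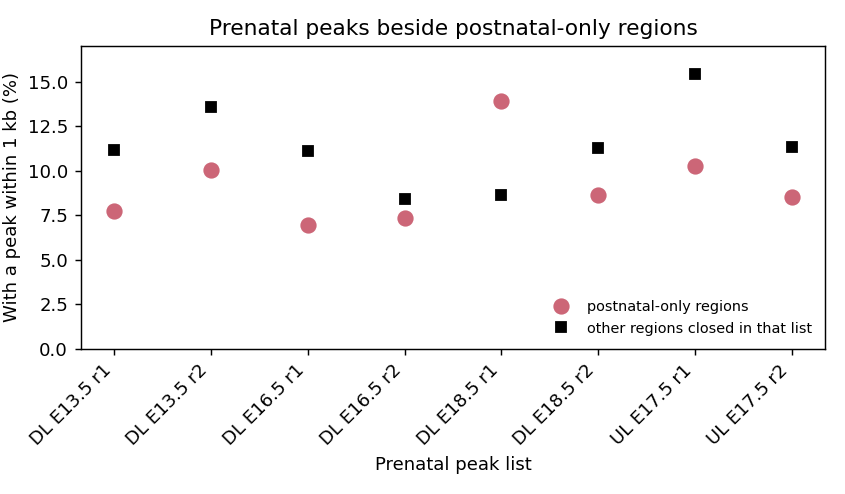
Percent of regions with a peak of the list within 1 kb of an edge (vertical axis), for each prenatal list (horizontal axis; DL deep-layer, UL upper-layer, r replicate). Circles are postnatal-only regions and squares all other regions closed in that list. Deep-layer E18.5 replicate 1 is the single list whose circle (13.9%) lies above its square (8.64%).

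The postnatal-only regions lay somewhat further from regions open in every list than regions did in general, and nearer than the other sets compared here. Their median distance to the nearest region open in all 12 lists was 66290 bp, beside 59150 bp for all regions, 71981.5 bp for the other regions open in exactly 4 lists and 85527 bp for the prenatal-only ones. Within 10 kb of such a region lay 13.8% of the postnatal-only regions and 13.8% of all regions, 11.8% of the others open in 4 lists and 8.66% of the prenatal-only ones. At the far end, 41.2% of the postnatal-only regions, 37.3% of all regions and 41.4% of the others open in 4 lists lay more than 100 kb away or on a contig without one.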

How the data were processed

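The authors deposited 1 peak list per sample for 12 samples, with positions in bp and no other score, height or p-value. The deposited lists are in no normalized unit. Per the submitters' processing notes, cutadapt, Bowtie2, Picard 1.14.0 and MACS2 2.1.0 were used with the build mm9. For thresholds, reads that map to several places and any shift for the transposase, the setting is not given in the sources used here. Peaks were merged where they overlapped or touched, without a gap, and width per region is the summed bp of a list's peaks in it. Merging, open calls and tests were tested on simulated data with known answers. Single values were compared by exact permutation of list labels. Named regions are the 10 widest by median width, the 5 largest differences in each direction between P1 and P5 where the stages do not overlap, and the densest 1 Mb windows. The regions and rules were chosen with earlier results of these data known. Gene starts and motifs were planned but are not analysed here, since no mm9 genome or annotation was used. Alternatives were each list left out, 50% coverage, merging within 200 bp, 500 bp around midpoints, equal numbers of the widest peaks (96452), autosomes, other flanks and permutation within replicate number. Added after seeing the data were placed chromosomes only, regions outside crowded windows, centred widths and shifted or stricter windows. Intervals are 95% Wilson intervals and cover counting error only. Python 3.11.15, numpy 2.4.6, pandas 2.3.3, scipy 1.17.1 and matplotlib 3.10.9 were used.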

Additional observations from a re-analysis of the deposited data

How the results depend on the processing

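The number of postnatal-only regions depended on asking all 4 postnatal lists to be open and on asking deep-layer E18.5 replicate 1 to be closed (4228 regions without it). It also depended on the coverage asked for. Leaving out each list in turn gave 2757 to 5322 regions, a median length of 570 to 734 bp, a difference in width between P5 and P1 of -27.0 to 14.5 bp and a difference in neighbouring peaks between E18.5 and E13.5 of -0.367 to 5.04 percentage points, with exact permutation p of 0.333 to 1 for widths and 0.2 to 0.767 for neighbours. The sign turned without P1 replicate 1 (11.5 bp), without P5 replicate 2 (14.5 bp) and, for neighbours, without deep-layer E18.5 replicate 1 (-0.367). With at least 50% of a region covered 1529 regions met the rule, of median length 627 bp, and none of the 10 regions named for P1 against P5 overlapped one of them, while 6 of the 10 widest did. With each list cut to its 96452 widest peaks there were 2160 regions and 4 of the 10 named for P1 against P5 overlapped one. The median length was 743 bp with the widest peaks, 799 bp with peaks up to 200 bp apart merged, 778 bp with 500 bp around midpoints and 725.5 bp outside crowded windows. Windows shifted along the genome held 30.8% of the regions in groups of 5 or more, and 20.8% lay in windows of 10 or more. The other alternatives kept the direction of both tested differences, apart from 500 bp around midpoints, which sets most widths equal (difference 0), and the p for neighbours stayed above 0.05 in each (2 lists against 2 cannot reach it for widths). With a replicate block, permuting stages within replicate number, the neighbour difference of 2.41 had p = 0.556 (exact permutation). Replicate numbers did not pair the deep-layer lists: deviations of same-numbered lists correlated at -0.0884 to 0.0234 over all regions. By the labels P1 and P5 share 1 replicate number, so their comparison has no block. By the peak names, where P1 replicate 3 is numbered 2, they would share both, and that pairing was not tested. List length and the caller's threshold limit what counts as closed.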
